A study of Mus musculus with 24 samples.

Results

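Messenger RNA of the nuclear-encoded subunits of the respiratory chain and ATP synthase was followed in mouse hearts through ischemia and reperfusion. Members were the protein-coding genes whose symbols begin with Nduf and a, b, c, s or v, with Uqcr, with Cox4 to Cox8 or with Atp5, together with Sdha, Sdhb, Sdhc, Sdhd, Cyc1 and Cycs. Assembly factors and pseudogenes were left out, and no measured value entered the choice. The rule gave 87 of the 46078 genes counted: 36 of complex I, 4 of complex II, 9 of complex III, 20 of complex IV, 17 of ATP synthase, and cytochrome c. Ndufa4 and its relative Ndufa4l2 were counted with complex IV, to which the Ndufa4 protein belongs. Of the 87 members, 85 had enough reads to be tested. Cox7b2 had 19 reads over all libraries and at most 4 in any of them, and Cox8c had 0 reads, where 3 reads correspond to 0.175 to 0.224 CPM per library. Both are isoform genes known for expression in testis.

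The respiratory chain lies in the inner mitochondrial membrane. Complex I takes electrons from NADH and complex II from succinate, complex III hands them to cytochrome c, and complex IV passes them to oxygen. Complexes I, III and IV pump protons, and ATP synthase (complex V) makes ATP from the gradient, which is the main source of ATP in a beating heart. The mitochondrial genome encodes a small core of the subunits, and the genes described here, in the nucleus, encode the rest.

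Hearts came from C57BL/6 mice, an inbred laboratory strain, in 8 groups of 3 libraries. A sham group had surgery only, a second group had 45 min of ischemia with no reperfusion, and in 6 groups the same ischemia was followed by blood flow restored for 0.5, 1, 1.5, 3, 6 and 12 h. The labels give the tissue as heart and the groups by treatment. They do not say which vessel was closed, how old the mice were or whether libraries of a group came from different mice, so p-values reflect only how far these libraries spread, which may be technical. Values are CPM (counts scaled to library size), mean ± SD with n = 3 in every group, and changes are log2 fold changes ± SE. Genes were called from edgeR's quasi-likelihood test where the p adjusted by Benjamini-Hochberg over all 15128 genes tested was under 0.05, and every adjusted p given comes from that test.

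Libraries held 13407465 to 17181458 reads in genes. All 17 cardiomyocyte markers were detected in every group, and their summed level in sham hearts was 98882 to 102877 CPM. In some libraries the members stood apart from the rest of their group. The median log2 ratio of the members to the sham mean was 0.83 in replicate 1 of the 1 h hearts, against 0.14 and 0.19 in the other 1 h libraries. It was 0.052 in replicate 1 of the 3 h hearts, against 0.42 and 0.32 in the other 3 h libraries, and 0.26 in replicate 3 of the ischemia hearts, against 0.042 and 0.15. Replicate 1 also stood higher in the 0.5 h hearts (0.44, against 0.28 and 0.30) and the 1.5 h hearts (0.34, against 0.15 and 0.20). The mitochondrial genome supplied 28.7% of reads in that 1 h library, with 21.1% and 24.5% in the others of 1 h, and 19.0% in that ischemia library, with 30.2% and 29.7% in the others. The main counts and medians at 1 h and 3 h are given with and without the library concerned.

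Many members were higher than in sham hearts at 0.5, 1, 3 and 6 h of reperfusion, and few at 1.5 h and 12 h. In complex I most of the members called higher were accessory subunits. After 0.5 h 30 of 85 members were called higher and 0 lower (35.3% of members, against 7.43% higher and 4.48% lower among all genes tested). After 1 h 38 were higher and 0 lower (44.7%, against 7.46% and 3.41% of all genes). At 1.5 h 4 were higher and 0 lower (4.71%, against 4.55% and 2.99%), a share higher that lay near that of all genes. At 3 h 28 were higher and 0 lower (32.9%, against 18.4% and 16.9%). At 6 h 27 were higher (31.8%, against 24.6%) and 5 lower (5.88%, against 22.9%). At 12 h 4 were higher (4.71%, against 16.9%) and 11 lower (12.9%, against 14.9%). Median log2 fold changes of the 85 members were 0.35, 0.42, 0.22, 0.28, 0.10 and -0.12 at 0.5, 1, 1.5, 3, 6 and 12 h, while the medians of all tested genes lay near 0. With reads scaled to library totals alone, the members' 12 h median was 0.10, with 15 members higher and 2 lower. The median of all genes there moved by 0.22 to 0.23, with 27.0% called higher and 8.12% lower, so the members' median stayed below it. Without 1 h replicate 1 the 1 h median was 0.17, below those of 0.5, 1.5 and 3 h with all libraries, and without 3 h replicate 1 the 3 h median was 0.34.

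**Figure D1:**
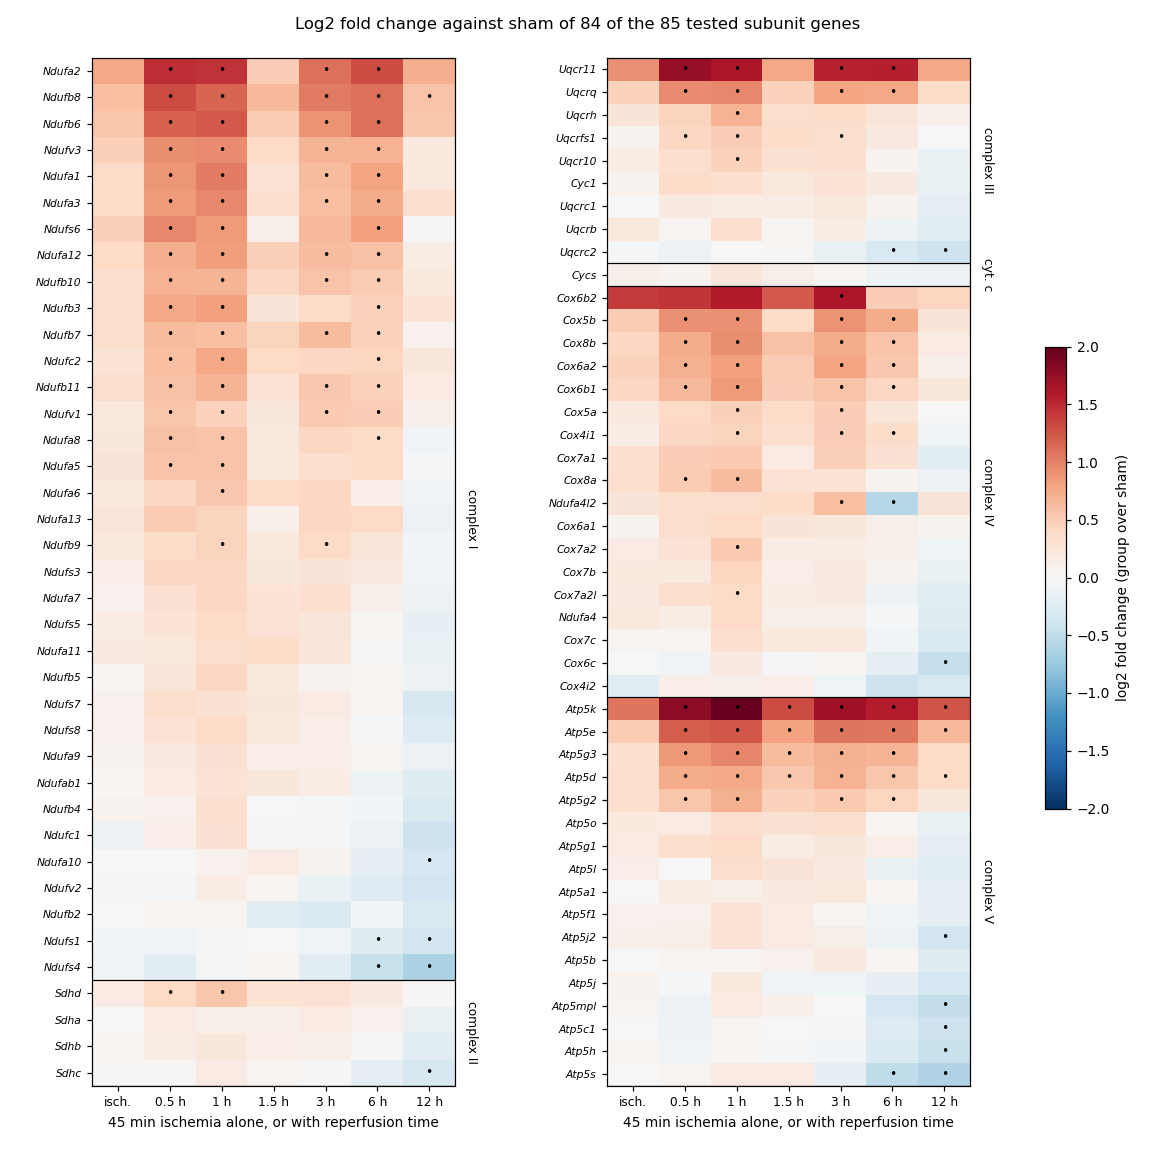
Log2 fold change against sham of 84 of the 85 tested members (down the page, grouped by complex) in each of the 7 other groups, in time order from ischemia alone to 12 h, with a dot where the member was called at an adjusted p under 0.05. Higher members fill the 0.5, 1, 3 and 6 h columns, and 53 of all 85 members are below sham at 12 h. With reads scaled to library totals alone the 12 h median of the members was 0.10, against 0.23 in all genes.

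After ischemia alone, 0 members were called in either direction, where 0.0925% of all genes were called higher. By edgeR 20 members had an unadjusted p under 0.05, all of them higher, and DESeq2 called 0. The log2 fold changes of 77 of 85 members were above 0 (90.6%, against 50.8% of all genes), with a median of 0.17. With the trend of fold change over transcript length and GC content removed, 45 of 85 were above 0 and the median was 0.014. Summed over the members, the level was 35232 to 39719 CPM in ischemia hearts, against 34268 to 35032 CPM in sham hearts, so the groups did not overlap. The summed level was 39883 to 43996 CPM at 0.5 h, 37237 to 55421 at 1 h, 38142 to 42066 at 1.5 h, 35789 to 45844 at 3 h, 37238 to 37950 at 6 h and 30536 to 32186 at 12 h. The 1 h and 3 h libraries were the most spread, and the highest 1 h sum came from replicate 1. By member, the highest of the 8 group means fell at 1 h for 54 members and at 0.5 h for 14, and the lowest at 12 h for 52 and in sham for 31. The 1 h peak rests on that library: without it the highest mean fell at 1 h for 0 members, at 0.5 h for 47, at 3 h for 18 and at 1.5 h for 15.

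Some of these counts rest on single libraries. The count of members called at 0.5 h, 30 with all libraries, was 13 without 0.5 h replicate 1, and 16 and 17 without sham replicates 1 and 3. At 1 h it was 13 without 1 h replicate 1, the library that stood apart, and 24, 25 and 25 without sham replicates 1, 2 and 3. At 1.5 h it was 1 without 1.5 h replicate 1 or 3 or any sham library. At 3 h it was 45 without 3 h replicate 1 and 17 without 3 h replicate 3. At 6 h, counting both directions, it was 21 without sham replicate 1 or 3, against 32 with all libraries (47.4% of all genes were called there). At 12 h it was 5 without 12 h replicate 1 or 2, and 7, 6 and 6 without sham replicates 1, 2 and 3, against 15 (31.8% of all genes).

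**Figure D2:**
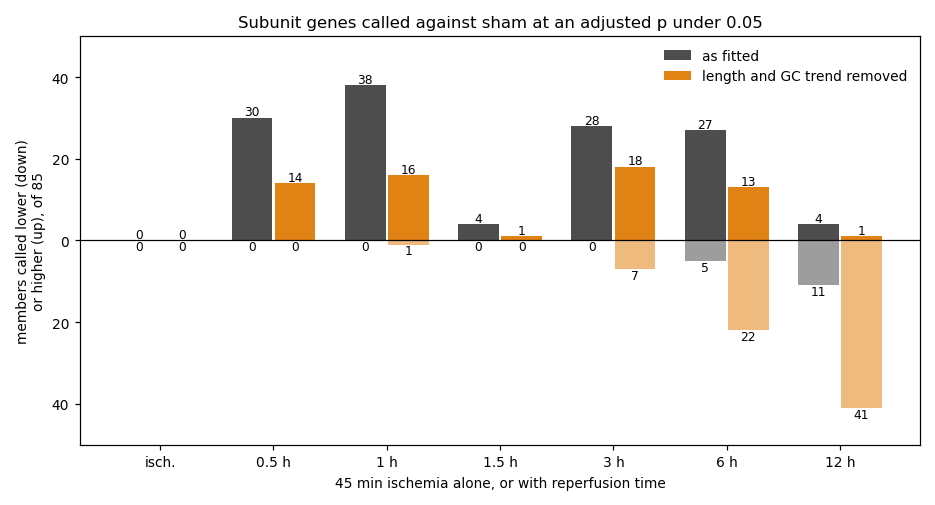
Number of members called higher (above 0) and lower (below 0) than sham in each group, in time order, as fitted and with the trend of log2 fold change over transcript length and GC content removed. As fitted the counts higher are 0, 30, 38, 4, 28, 27 and 4, and the counts lower reach 5 at 6 h and 11 at 12 h. Scaling to library totals gave 15 higher and 2 lower at 12 h, against 27.0% and 8.12% of all genes. With the trend removed 24.2% of all genes were called higher and 25.3% lower at 6 h, and 15.9% and 18.1% at 12 h.

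The largest rises were in Atp5k, which encodes subunit e of ATP synthase, a small membrane protein of the stalk region involved in joining ATP synthase into dimers (ENSMUSG00000050856; GRCm38 chromosome 5, 108433244 to 108434448, minus strand). Its level was 36.0, 47.2 and 34.4 CPM in sham hearts, 36.7, 75.2 and 134 CPM after ischemia alone, and 146, 125 and 136 CPM at 0.5 h. It was 223, 124 and 128 CPM at 1 h, 118, 79.2 and 93.1 at 1.5 h, 118, 133 and 129 at 3 h, 117, 120 and 112 at 6 h, and 99.5, 102 and 79.95 at 12 h. Every reperfusion library was above every sham library, whereas the 3 ischemia libraries spread over almost the whole range. Against sham Atp5k rose by 1.79 ± 0.29 at 0.5 h, 2.01 ± 0.29 at 1 h, 1.30 ± 0.28 at 1.5 h, 1.69 ± 0.29 at 3 h, 1.57 ± 0.28 at 6 h and 1.26 ± 0.28 at 12 h. The adjusted p was 0.000579, 9.19e-05, 0.00491, 8.49e-05, 8.66e-05 and 0.00139 in the same order, and these 6 calls held at all alternative settings and without each library in turn. After ischemia alone the log2 fold change was 1.07 ± 0.28 (adjusted p = 0.236).

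Uqcr11, a small subunit of complex III, came next (ENSMUSG00000020163; chromosome 10, 80402997 to 80406830, minus strand). Its level was 312, 258 and 254 CPM at 0.5 h, against 79.6, 83.5 and 82.2 CPM in sham hearts, a rise of 1.75 ± 0.31 (adjusted p = 0.00145). It was 375, 217 and 162 CPM at 1 h (1.62 ± 0.31), 191, 210 and 311 at 3 h (1.54 ± 0.31) and 250, 259 and 214 at 6 h (1.56 ± 0.31), which were called too. At 12 h it was 183, 134 and 104 CPM, and the log2 fold change of 0.78 ± 0.31 missed the threshold (adjusted p = 0.0531). All of these libraries lay above the 3 sham libraries. In ischemia hearts the level was 89.4, 110 and 264 CPM, with replicate 3 at the reperfusion level.

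Ndufb8 and Ndufa2 led complex I, and both encode accessory subunits, which surround the catalytic core. Ndufb8 (ENSMUSG00000025204; chromosome 19, 44548572 to 44555440, minus strand) had 257, 232 and 223 CPM at 0.5 h, against 95.4, 102 and 91.2 CPM in sham hearts (1.30 ± 0.22, adjusted p = 0.000962). Its rises were 1.16 ± 0.22 at 1 h, 1.04 ± 0.22 at 3 h, 1.10 ± 0.22 at 6 h and 0.56 ± 0.22 at 12 h (adjusted p = 0.0497), and the last was lost under 4 of the 9 other settings and without 12 h replicate 1 or 2 or any sham library. Ndufa2 had 181, 156 and 160 CPM at 0.5 h, against 61.8, 54.9 and 61.9 CPM in sham hearts (1.47 ± 0.31, adjusted p = 0.00424), with rises of 1.45 ± 0.31 at 1 h, 1.10 ± 0.30 at 3 h and 1.31 ± 0.30 at 6 h. Its 1 h call was lost without 1 h replicate 1 and its 3 h call without 3 h replicate 3. Ndufb6, another accessory subunit, rose by 1.18 ± 0.24, 1.23 ± 0.24, 0.90 ± 0.24 and 1.10 ± 0.24 at 0.5, 1, 3 and 6 h. Of the exon length of Ndufb6, 39.0% overlaps Smim27 on the opposite strand, so its reads are of uncertain origin as the strand setting of the counting is not stated. Exons of 30 members overlap another gene, 27 of them on the opposite strand. These include Uqcrc2 (19.7%), Ndufa2 (11.5%), Cox6a2 (10.3%) and Cox4i1 (9.94%).

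Other small ATP synthase subunits rose too. Atp5e (epsilon, of the central stalk) had 418, 242 and 231 CPM at 1 h, against 131, 134 and 113 CPM in sham hearts, a rise of 1.24 ± 0.24 (adjusted p = 0.0017). It was called at all 6 times, down to 0.65 ± 0.23 at 12 h (adjusted p = 0.0356), and its 1.5 h call was lost without 1.5 h replicate 1 or 3 or any sham library. Atp5d (delta, of the central stalk) had 728, 515 and 494 CPM at 1 h, against 354, 355 and 314 CPM in sham hearts (0.76 ± 0.15, adjusted p = 0.00177), and was called at all 6 times, though its 1.5 h call was lost without the same libraries as that of Atp5e and all 6 calls were lost with the trend of fold change over transcript length and GC content removed. Atp5g3, 1 of 3 genes for the proton-carrying c ring, had 1577, 970 and 954 CPM at 1 h, against 616, 623 and 530 CPM in sham hearts (0.98 ± 0.19, adjusted p = 0.00175), and was called at each time up to 6 h, though at 1.5 h not without any 1 of the 6 libraries compared. The 12 h calls of Atp5e and Atp5d were also lost without any 1 of 6 libraries. For all 3 genes the 1 h libraries lay above the sham libraries.

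**Figure D3:**
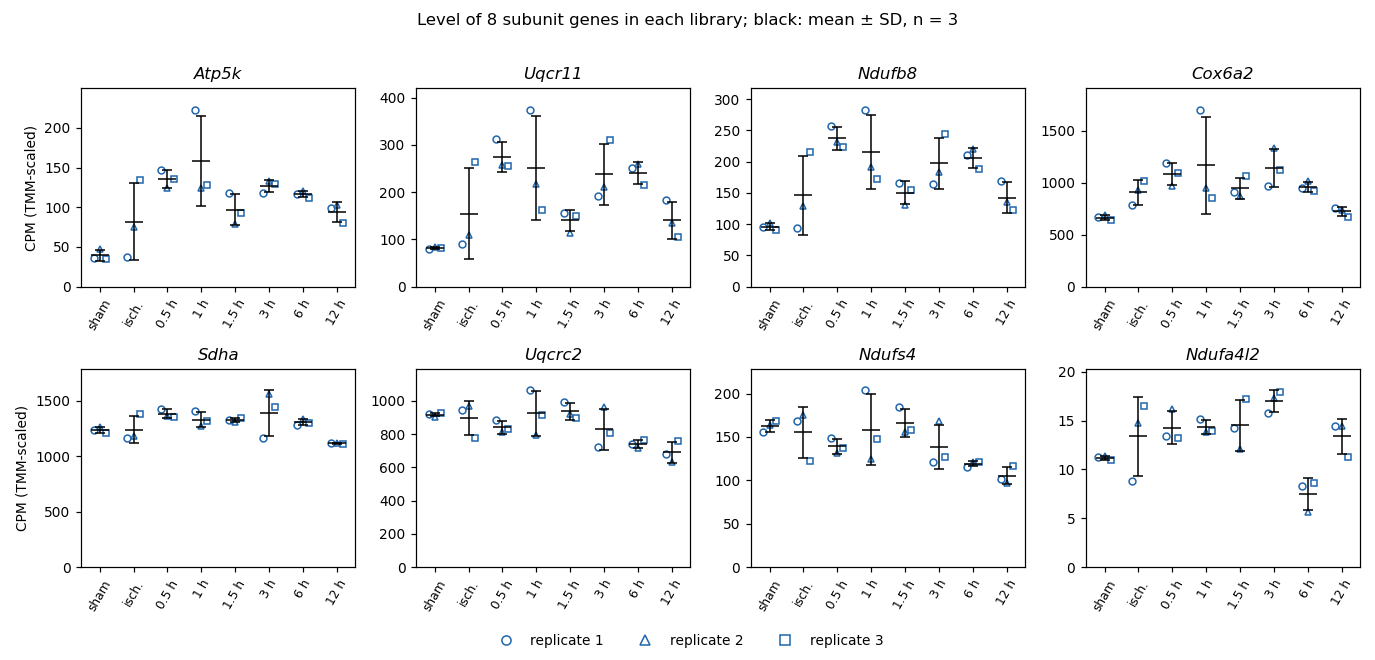
CPM per library in all 8 groups in time order, with the mean and SD of each group (n = 3), for Atp5k, Uqcr11, Ndufb8, Cox6a2, Sdha, Uqcrc2, Ndufs4 and Ndufa4l2. Atp5k lies above its sham libraries in every reperfusion library, Sdha stays within 1113 to 1564 CPM, and Ndufs4 is lowest at 12 h (97.4 to 116 CPM).

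The RefSeq promoter windows (GRCm38.p6, 250 bases before to 50 after the annotated start) of 70 of the 87 members were searched on both strands for motifs of factors known to control respiratory genes. The NRF1 motif, GCGC followed by A, any base and GCGC, stood in 16 of 70 member windows (22.9%), against 6.60% of 17492 windows of all genes. The motif of GABPA, CCGGAAG, stood in 15 (21.4%, against 11.9%), that of YY1, AAGATGGCG, in 6 (8.57%, against 1.94%), and that of the estrogen-related receptors, TCAAGGTCA, in 2 (2.86%, against 0.332%). The GABPA and YY1 strings can overlap by the bases AAG. A window held at least 1 of the NRF1, GABPA and YY1 strings in 45.7% of members, against 18.6% of all genes. Of the 33 windows of members called higher at 1 h, against the 36 of members tested and not called, the NRF1 string was in 24.2%, against 22.2%, the GABPA string in 27.3%, against 16.7%, the YY1 string in 3.03%, against 13.9%, and the receptor string in 6.06%, against 0%. These are counts of at most 9 windows, and the differences were not tested. Below are bases 120 to 41 before the start, written 5′ to 3′ on the minus strand where all 5 genes lie, for the 4 members with the largest early rises among those printable here and for Sdha, which was called at no time. Capitals mark a motif match.
Atp5k, chr5:108434440-108434519, NRF1 string: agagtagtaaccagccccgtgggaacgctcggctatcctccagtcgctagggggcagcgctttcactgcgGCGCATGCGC
Uqcr11, chr10:80406862-80406941, GABPA string: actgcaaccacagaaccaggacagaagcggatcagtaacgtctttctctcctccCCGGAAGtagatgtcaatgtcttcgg
Ndufb8, chr19:44555483-44555562, no match: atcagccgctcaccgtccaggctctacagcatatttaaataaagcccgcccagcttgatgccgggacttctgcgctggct
Atp5e, chr2:174464142-174464221, GABPA string on the other strand: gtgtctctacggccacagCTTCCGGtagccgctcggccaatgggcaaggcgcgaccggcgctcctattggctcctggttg
Sdha, chr13:74350281-74350360, NRF1 string at 2 places: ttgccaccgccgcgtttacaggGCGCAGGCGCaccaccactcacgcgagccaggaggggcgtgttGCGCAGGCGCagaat
A match is a run of letters and no measure of binding, and the window of Sdha holds more NRF1 strings than that of Atp5k. The starts used here are those of RefSeq. The position given above for Atp5k, from GENCODE, begins further upstream, and nearly all of the printed NRF1 string of Atp5k lies inside it.

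In complex I the accessory subunits gave most of the calls. Its 29 accessory subunits gave 15, 17, 0, 11, 14 and 1 members higher at 0.5, 1, 1.5, 3, 6 and 12 h and 0, 0, 0, 0, 1 and 2 lower, with median log2 fold changes of 0.57, 0.57, 0.27, 0.42, 0.39 and -0.05. The 7 core subunits, which carry the NADH site, the iron-sulfur clusters and the quinone site, gave 1 member higher at 0.5, 1, 3 and 6 h and 1 lower at 6 and 12 h, with medians of 0.30, 0.30, 0.21, 0.16, 0.04 and -0.25. Without 1 h replicate 1 the members higher at 1 h were 3 of the 29 accessory subunits (median 0.25) and 0 of the 7 core subunits (0.11), and without 3 h replicate 1 those higher at 3 h were 18 (0.49) and 2 (0.31). The core member that rose with all libraries was Ndufv1, the subunit that binds NADH. It had 669, 615 and 615 CPM at 0.5 h, against 440, 429 and 426 CPM in sham hearts (0.55 ± 0.13, adjusted p = 0.011), a call that was lost without 0.5 h replicate 1 (0.51), and its 1 h call was lost without 1 h replicate 1 (0.32). The calls of Ndufv1 at 0.5, 1, 3 and 6 h were all lost with the length and GC trend removed. The split into core and accessory subunits was made after values had been seen. The median transcript length was 732 bases in the accessory and 1623 bases in the core subunits. The part of length in their difference was not tested. In ATP synthase 2 of 5 subunits of the catalytic head and central stalk were higher at 0.5, 1 and 3 h. Of the 3 c ring genes 2 were higher then, and of the 9 other subunits 1, with 0 lower in each set.

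Of the 4 members of complex II, 1 was called higher at 0.5 h and at 1 h (7.43% and 7.46% of all genes). At 12 h 1 was called lower (14.9% of all genes). Sdha, the flavoprotein that oxidises succinate and is shared with the citric acid cycle, had 1427, 1366 and 1350 CPM at 0.5 h, against 1234, 1261 and 1206 CPM in sham hearts. These libraries did not overlap, and the log2 fold change of 0.16 ± 0.10 was not called (adjusted p = 0.318). Sdhb, the iron-sulfur subunit, was called at no time, with log2 fold changes between -0.23 and 0.23. Sdhd, a membrane anchor, rose by 0.40 ± 0.13 at 0.5 h (adjusted p = 0.0449) and 0.56 ± 0.13 at 1 h (adjusted p = 0.00716), where it had 504, 343 and 373 CPM, against 286, 273 and 270 CPM in sham hearts. The 1 h call of Sdhd was lost without 1 h replicate 1 and its 0.5 h call without any of 6 libraries of those groups. Sdhc, the other membrane anchor, fell by 0.31 ± 0.11 at 12 h (adjusted p = 0.0306), with 283, 260 and 286 CPM, against 346, 348 and 335 CPM in sham hearts, and the call was lost without 12 h replicate 1 or 2 or any sham library.

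Complex III had 3, 5, 0, 3, 2 and 0 members higher and 0, 0, 0, 0, 1 and 1 lower at the 6 times. Without 1 h replicate 1 it had 3 higher at 1 h, and without 3 h replicate 1 7 at 3 h. Besides Uqcr11, the small subunit Uqcrq, chosen after its values were seen, rose at 0.5, 1, 3 and 6 h by 0.95 ± 0.20, 0.95 ± 0.20, 0.80 ± 0.20 and 0.77 ± 0.20. Uqcrh, the hinge protein beside cytochrome c1, had 612, 350 and 376 CPM at 1 h, against 289, 281 and 254 CPM in sham hearts (0.70 ± 0.15, adjusted p = 0.00454). The call of Uqcrh was lost with the length and GC trend removed. Cyc1, the cytochrome c1 that passes electrons on, had 922, 842 and 823 CPM at 0.5 h, against 680, 683 and 634 CPM in sham hearts, and its log2 fold change of 0.37 ± 0.13 missed the threshold (adjusted p = 0.0591). The core protein Uqcrc1 was not called at any time, with 0.18 ± 0.11 at 0.5 h and -0.20 ± 0.11 at 12 h. Cycs, cytochrome c itself, was between 0.24 ± 0.14 at 1 h and -0.12 ± 0.14 at 12 h and was not called, and 76.9% of its reads were uniquely mapped, the lowest share of any tested member.

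Complex IV had 5, 9, 0, 8, 5 and 0 members higher at the 6 times and 1 lower at 6 and at 12 h, with 2 higher at 1 h without 1 h replicate 1. Several of its subunits exist as a form used in heart and skeletal muscle and a form used more widely, and in sham hearts the muscle form was the more abundant per transcript length. Cox6a2, the muscle form, had 1187, 971 and 1089 CPM at 0.5 h, against 666, 686 and 640 CPM in sham hearts (0.71 ± 0.18, adjusted p = 0.0146), and rose by 0.81 ± 0.18, 0.78 ± 0.18 and 0.53 ± 0.18 at 1, 3 and 6 h. Its widely used partner Cox6a1 was called at no time, with 0.35 ± 0.15 at 0.5 h and 0.23 ± 0.15 at 3 h. Cox8b, also a muscle form, rose by 0.74 ± 0.19, 0.94 ± 0.19, 0.74 ± 0.19 and 0.57 ± 0.19 at 0.5, 1, 3 and 6 h, and its partner Cox8a by 0.51 ± 0.16 and 0.61 ± 0.16 at 0.5 and 1 h. Cox7a1, the muscle form of that subunit, was not called at any time (0.50 ± 0.20 at 0.5 h, adjusted p = 0.1), and its partner Cox7a2 was called at 1 h (0.52 ± 0.16, adjusted p = 0.0384). Without 1 h replicate 1 the 1 h calls of Cox6a2 (0.45), Cox8a (0.27) and Cox7a2 (0.17) were lost. With the length and GC trend removed all calls of Cox8b, Cox8a and Cox7a2 were lost, and Cox6a2 kept its call at 3 h only. Without 0.5 h replicate 1 or sham replicate 1 or 3 the 0.5 h calls of Cox6a2, Cox8b and Cox8a were lost, and the difference between partners was not tested by a model.

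The ratio of partner levels per transcript length, taken within each library, compares partners without library scaling. Cox6a2 over Cox6a1 was 10.6 to 13.3 at 3 h and 10.1 to 10.9 at 6 h, against 7.12 to 9.44 in sham hearts, and 7.33 to 9.59 at 12 h. Cox8b over Cox8a was 5.17 to 5.88 at 3 h and 5.47 to 5.91 at 6 h, against 3.83 to 4.26 in sham hearts. The 3 h and 6 h libraries lay above the sham libraries for both pairs. Cox7a1 over Cox7a2 was 2.91 to 3.09 at 3 h and 1.82 to 2.47 at 12 h, against 2.14 to 2.86 in sham hearts, so the 12 h libraries overlapped with sham. Among the c ring genes, whose products are the same mature protein, Atp5g3 over Atp5g1 was 8.40 to 8.84 at 0.5 h and 8.997 to 9.18 at 12 h, against 5.45 to 6.28 in sham hearts, and lay above sham in all reperfusion libraries. Atp5g1 itself was not called at any time (0.38 ± 0.15 at 1 h, adjusted p = 0.0897), while Atp5g2 rose by 0.55 ± 0.14 at 0.5 h and 0.71 ± 0.14 at 1 h. Both calls of Atp5g2 were lost with the length and GC trend removed. The transcript of Atp5g1 used for length has 4715 bases, which sets the size of that ratio. The median over the 3 c ring genes is 731 bases. The part of the trend of fold change over transcript length in the change of the ratio was not tested.

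**Figure D4:**
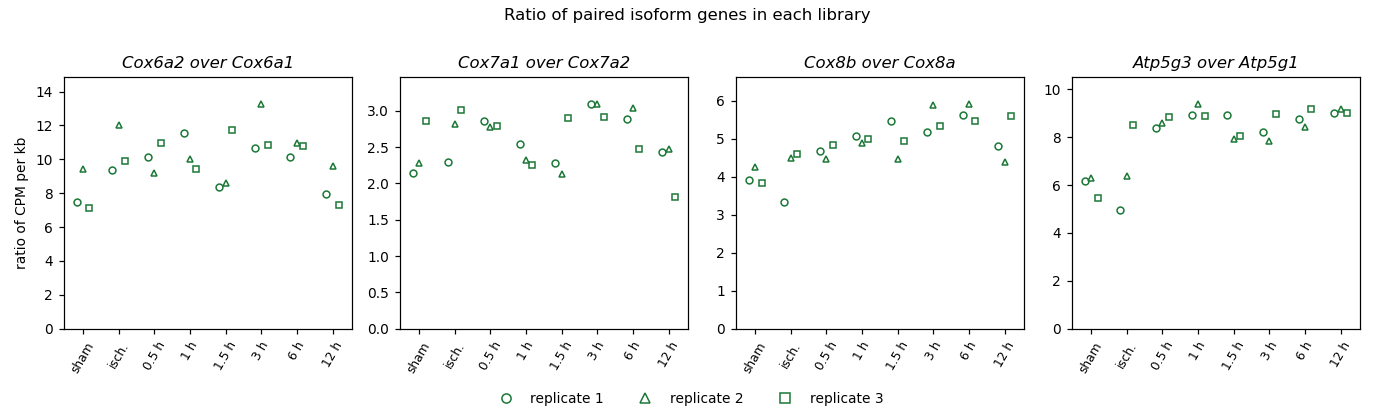
Ratio of levels per transcript length of Cox6a2 over Cox6a1, Cox7a1 over Cox7a2, Cox8b over Cox8a and Atp5g3 over Atp5g1 in each library, by group in time order (points are libraries, n = 3 per group). The Cox8b and Atp5g3 ratios of the 3 h and 6 h libraries lie above all sham ratios, and the Cox7a1 ratio at 12 h (1.82 to 2.47) overlaps that in sham (2.14 to 2.86).

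Of the other isoform families, Cox4i1, the main form of subunit IV, rose at 1, 3 and 6 h by 0.45 ± 0.15, 0.49 ± 0.15 and 0.36 ± 0.15 (adjusted p = 0.0479, 0.0117 and 0.0444). Its 1 h call was lost without 1 h replicate 1 (0.19) or any sham library, its 3 h call without 3 h replicate 3 (0.44) and its 6 h call without any 1 of 6 libraries. Cox4i2, a form known for induction by low oxygen, had 5.36, 6.43 and 7.84 CPM after ischemia alone, against 6.42, 6.85 and 9.51 CPM in sham hearts, and was not called at any time. Cox6b1 rose by 0.66 ± 0.17, 0.85 ± 0.17, 0.57 ± 0.17 and 0.41 ± 0.17 at 0.5, 1, 3 and 6 h, and its calls at 1 and 3 h held without each library. Its 6 h call was lost with the length and GC trend removed. Cox6b2, its form known from testis, was near the lower limit of detection at 0.964, 1.63 and 0.78 CPM at 3 h, against 0.257, 0.137 and 0.72 CPM in sham hearts. It was called at 3 h (1.62 ± 0.55, adjusted p = 0.0251), and that call was lost without 3 h replicate 2 or sham replicate 1 or 2 and with the length and GC trend removed.

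Ndufa4l2, a relative of Ndufa4 that is known for induction by low oxygen, moved in both directions. It had 11.2, 11.4 and 10.95 CPM in sham hearts, 8.85, 14.8 and 16.5 after ischemia alone, 13.4, 16.2 and 13.2 at 0.5 h and 15.2, 13.9 and 14.0 at 1 h. It had 14.2, 12.1 and 17.2 CPM at 1.5 h, 15.8, 17.3 and 17.9 at 3 h, 8.34, 5.61 and 8.59 at 6 h and 14.4, 14.4 and 11.3 at 12 h. The 3 h libraries were above all sham libraries and the 6 h libraries below them. Against sham it rose by 0.60 ± 0.19 at 3 h (adjusted p = 0.0153) and fell by 0.57 ± 0.20 at 6 h (adjusted p = 0.0184). The 3 h call was lost without 3 h replicate 3 and with the length and GC trend removed (0.088, adjusted p = 0.712), and the 6 h call without 6 h replicate 2 and with reads scaled to library totals (-0.52). Ndufa4 itself, with 471, 467 and 501 CPM at 6 h against 448, 500 and 530 CPM in sham hearts, was not called at any time.

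Per transcript length, members differed in level far more than any of them changed. In sham hearts Atp5b and Atp5a1, the beta and alpha subunits of the catalytic head of ATP synthase, had 2479 ± 39.95 and 1602 ± 83.1 CPM per kb, and Cox4i1 and Cox6c had 1224 ± 11.001 and 1105 ± 48.7. The first 2 of complex III were Uqcrc1 (703 ± 22.1) and Uqcrh (502 ± 33.5) and of complex II Sdhb (512 ± 13.5) and Sdha (425 ± 9.41). In complex I the accessory subunit Ndufb9 had 439 ± 16.8. Uqcrh and Sdhb did not differ beyond their spread. Atp5b had 5140, 4857 and 4824 CPM at 0.5 h and 3987, 3859 and 4152 CPM at 12 h, against 4724, 4835 and 4689 CPM in sham hearts. Neither difference was called (0.06 ± 0.10 and -0.25 ± 0.10, adjusted p = 0.762 and 0.0733), and Atp5a1 was not called either. Ndufb9 rose by 0.45 ± 0.13 at 1 h and 0.40 ± 0.13 at 3 h, and the 1 h call was lost without 1 h replicate 1 (0.22) or any sham library.

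By 12 h the members called lower were Ndufs1, Ndufs4 and Ndufa10 of complex I, Sdhc, Uqcrc2, Cox6c, and Atp5c1, Atp5h, Atp5j2, Atp5mpl and Atp5s of ATP synthase. Ndufs4, an accessory subunit whose loss in patients causes Leigh syndrome, had 102, 97.4 and 116 CPM at 12 h, against 156, 163 and 169 CPM in sham hearts, a fall of 0.63 ± 0.16 (adjusted p = 0.00348). At 6 h it had 116, 121 and 121 CPM and was also called (-0.45 ± 0.16, adjusted p = 0.0213). Atp5s, a factor coupled to ATP synthase, had 12.2, 9.75 and 13.1 CPM at 12 h, against 19.1, 17.8 and 16.4 CPM in sham hearts (-0.60 ± 0.16, adjusted p = 0.00504), and was called at 6 h (-0.50 ± 0.16, adjusted p = 0.012). The 6 h call of Ndufs4 was lost without 6 h replicate 1 or sham replicate 2 or 3 (-0.43, -0.44 and -0.42), and that of Atp5s without sham replicate 1 (-0.44). In both genes all 6 late libraries lay below all sham libraries. The 12 h calls of Ndufs4 and Atp5s held at all settings and without each library, including reads scaled to library totals, where they were the 2 members called lower.

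Uqcrc2, a core protein of complex III, and Ndufs1, the largest core subunit of complex I, were likewise called lower at 6 and 12 h. At 6 h the log2 fold changes were -0.31 (adjusted p = 0.0375) and -0.24 (adjusted p = 0.0476), and both 6 h calls were lost without any 1 of 6 libraries, with duplicates removed, with no filter and with the length and GC trend removed. Uqcrc2 had 678, 634 and 759 CPM at 12 h, against 918, 905 and 926 CPM in sham hearts (-0.41 ± 0.12, adjusted p = 0.0117). Ndufs1 had 487, 489 and 540 CPM, against 648, 669 and 643 CPM (-0.37 ± 0.10, adjusted p = 0.00625). Atp5h, subunit d of the peripheral stalk, had 375, 396 and 400 CPM at 12 h, against 512, 537 and 547 CPM in sham hearts (-0.45 ± 0.14, adjusted p = 0.0158). Atp5mpl, a small proteolipid of ATP synthase, fell by 0.47 ± 0.17 (adjusted p = 0.041) and Cox6c by 0.46 ± 0.17 (adjusted p = 0.0415). With reads scaled to library totals alone these 5 were not called, at log2 fold changes from -0.25 to -0.16. The 12 h call of Uqcrc2 was lost without 12 h replicate 2 (-0.34), that of Atp5h without 12 h replicate 1 (-0.41), and those of Atp5mpl and Cox6c without any 1 of 6 libraries. The tissue was profiled whole, so fewer cardiomyocytes and less of these messages per cardiomyocyte cannot be told apart.

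Some marker genes of cell types were called at the same times. Among all genes 7.43% were called higher and 4.48% lower at 0.5 h, and 7.46% and 3.41% at 1 h. These shares were 18.4% and 16.9% at 3 h, 24.6% and 22.9% at 6 h, and 16.9% and 14.9% at 12 h. At 0.5 h the cardiomyocyte sum was 106450 to 108939 CPM, against 98882 to 102877 CPM in sham hearts, with 2 of 17 markers higher and 1 lower. Erythroid markers then summed to 219 to 353 CPM, against 79.2 to 186 CPM in sham hearts, with 3 of 5 tested called higher, and neutrophil markers to 13.0 to 21.1 CPM, against 5.21 to 10.9 CPM, with 5 of 11 higher. At 1 h 2 cardiomyocyte, 2 erythroid and 5 neutrophil markers were higher. The cardiomyocyte sum was 72155 to 83120 CPM at 12 h, against 98882 to 102877 CPM in sham hearts, with 0 markers called higher, 7 lower and 0 absent. At 6 h 1 was higher and 6 lower, and at 3 h 8 were higher and 3 lower, with a sum of 96072 to 130544 CPM. With the length and GC trend removed 0 cardiomyocyte markers were called at 0.5 and 1 h, 1 was higher and 1 lower at 3 h, and 9 were lower at 6 h and 12 at 12 h. At that setting 25.3% of all genes were lower at 6 h and 18.1% at 12 h. Neutrophil markers summed to 225 to 264 CPM at 12 h and 153 to 306 at 6 h, against 5.21 to 10.9 CPM in sham hearts, and 11 of 11 tested were called higher at both times. Monocyte and macrophage markers had 5 of 15 higher and 2 lower at 12 h and 9 higher and 3 lower at 6 h, with sums of 514 to 652 and 549 to 648 CPM, against 491 to 518 CPM in sham hearts. Endothelial markers had 2 of 12 higher and 2 lower at 12 h (1999 to 2476 CPM, against 1813 to 2132), and fibroblast markers 2 of 10 higher and 3 lower (1440 to 2115 CPM, against 2316 to 2390). Erythroid markers summed to 105 to 208 CPM at 12 h, against 79.2 to 186 CPM in sham hearts, with Slc4a1 at 0 in both groups, and fat markers to 17.1 to 20.5 CPM, against 13.4 to 19.3, with Lep and Ucp1 at 0 in both groups. The part of these cells in the members' values was not tested.

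Short transcripts, which many small subunits have, rose more than long ones among all genes as well. The 85 members had a median transcript length of 809 bases, against 2989 in 13372 other tested protein-coding genes. Log2 fold changes also went with GC content. At 0.5 h their correlation with GC content was 0.39 over members and 0.44 over the other genes. With log2 length it was -0.43 and -0.24. At 6 h these were 0.34 and 0.21 with GC content, and -0.40 and -0.12 with log2 length. The trend removed below covers length and GC content together, and their separate parts were not tested. At 1 h the median log2 fold change of the 34 members under 700 bases was 0.61, of the 30 from 700 up to 1500 bases 0.43 and of the 21 longer ones 0.16. In other protein-coding genes of the same classes it was 0.46, 0.28 and -0.05, so each class of members had the higher median at 1 h. Without 1 h replicate 1 the members' medians were 0.32, 0.20 and 0.057, against 0.28, 0.13 and -0.014 in the other genes. At 6 h they were 0.28, 0.127 and -0.055, against 0.34, 0.131 and -0.034, and at 12 h 0.048, -0.096 and -0.20, against 0.12, 0.077 and 0.00026, so at 6 and 12 h each class of members had the lower median. The 28 members called higher at 3 or more times had a median length of 681.5 bases, and the 34 called at no time 1062.5 bases. With the trend over length and GC content removed, a setting chosen after the data had been seen, the members called higher at 0.5, 1, 1.5, 3, 6 and 12 h numbered 14, 16, 1, 18, 13 and 1, and those called lower 0, 1, 0, 7, 22 and 41. Among all genes tested at that setting, 2.76%, 4.10%, 4.65%, 16.7%, 24.2% and 15.9% were called higher at these times. The shares called lower were 1.32%, 2.53%, 3.01%, 16.1%, 25.3% and 18.1%. The median log2 fold change was then 0.014 after ischemia alone, 0.13 at 0.5 h and 0.14 at 1 h. It was 0.097 at 1.5 h, 0.10 at 3 h, -0.09 at 6 h and -0.27 at 12 h.

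**Figure D5:**
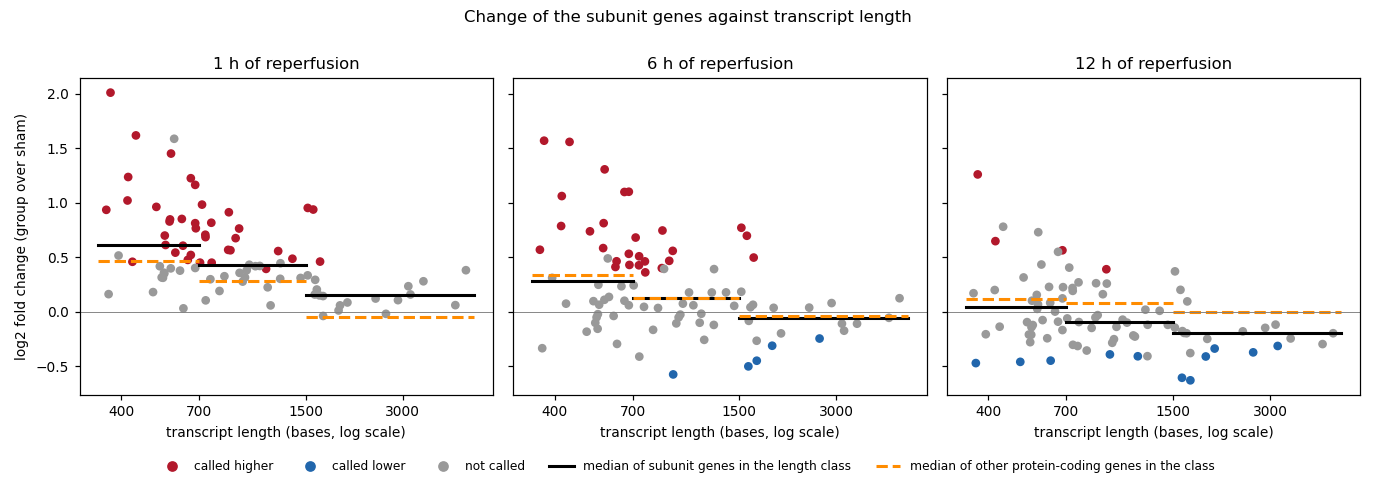
Log2 fold change against sham of the members over transcript length (bases, log axis) at 1, 6 and 12 h, with the median of 3 length classes for the members and for other tested protein-coding genes. At 1 h the class medians of the members, 0.61, 0.43 and 0.16, lie above those of the other genes, 0.46, 0.28 and -0.05, and at 12 h, 0.048, -0.096 and -0.20, below them (0.12, 0.077 and 0.00026).

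Both as fitted and with the length and GC trend removed, 9 members were called higher at 0.5, 1, 3 and 6 h: Atp5e, Atp5g3, Atp5k, Cox5b, Ndufa2, Ndufb6, Ndufb8, Uqcr11 and Uqcrq. Without the removal there were 22. Cox5b, a complex IV subunit chosen after its values were seen, had 427, 337 and 342 CPM at 0.5 h, against 182, 197 and 206 CPM in sham hearts (0.92 ± 0.20, adjusted p = 0.00528). Ndufs4 and Ndufa4l2 were called lower at 6 h both ways, and at 12 h the same 11 members were lower both ways. Over the 8 groups together, 64 of 85 members changed (75.3%, against 64.3% of all genes tested). Of the 85, 34 were called in no comparison with sham, among them Sdha, Sdhb, Cyc1, Cycs, Atp5a1 and Atp5b.

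The other genes of the same pathway followed several courses. Among all genes 7.43%, 7.46%, 4.55%, 18.4%, 24.6% and 16.9% were called higher at 0.5, 1, 1.5, 3, 6 and 12 h. The shares called lower were 4.48%, 3.41%, 2.99%, 16.9%, 22.9% and 14.9%. The 13 subunits encoded in the mitochondrial genome had 0 higher at any time and 8, 1, 0, 4, 7 and 7 lower at 0.5, 1, 1.5, 3, 6 and 12 h, led at 0.5 h by mt-Nd6 (-1.15 ± 0.25) and at 12 h by mt-Nd2 (-0.98 ± 0.21). Their summed level was 179406 to 212807 CPM at 0.5 h, against 285474 to 345138 CPM in sham hearts. With the length and GC trend removed 4, 3, 0, 1, 6 and 7 were lower, and the 3 h median was -0.021, against -0.38 as fitted. The shares of all genes lower at that setting were 1.32%, 2.53%, 3.01%, 16.1%, 25.3% and 18.1%. Of 49 assembly factors tested, 9, 11, 0, 5, 5 and 3 were higher and 1, 3, 4, 15, 17 and 17 lower. Cox11, which delivers copper to complex IV, rose by 1.91 ± 0.32 at 0.5 h and 1.46 ± 0.33 at 6 h, and Tmem126b, a complex I assembly factor, fell at 3 h (-1.36 ± 0.16) and at 6 h (-1.44 ± 0.16). Of 18 enzymes of the citric acid cycle, 1 was higher at 3 h, Idh2 (0.34 ± 0.12), 4 were lower at 6 h and 10 at 12 h, where Pdhb, a subunit of pyruvate dehydrogenase, fell most (-0.56 ± 0.12).

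Of the genes of 18 factors that control mitochondrial genes, 1, 1, 0, 5, 4 and 1 were higher and 0, 0, 0, 3, 5 and 6 lower at the 6 times. Calls were more frequent from 3 h on among all genes too, with 18.4% higher and 16.9% lower at 3 h, against 7.46% and 3.41% at 1 h. Esrra, the estrogen-related receptor alpha, rose by 0.95 ± 0.19 at 0.5 h and 0.65 ± 0.19 at 1 h, with 152 ± 6.703 CPM at 0.5 h, against 78.9 ± 9.56 CPM in sham hearts. Ppargc1a, the coactivator PGC-1 alpha, had 331 ± 115 CPM at 3 h, 66.7 ± 27.6 at 6 h and 62.1 ± 6.77 at 12 h, against 140 ± 5.94 CPM in sham hearts, with log2 fold changes of 1.24, -1.07 and -1.17, all called. Pprc1, a related coactivator, rose by 1.47 ± 0.20, 2.31 ± 0.20 and 1.41 ± 0.20 at 3, 6 and 12 h. Tfb1m, which modifies mitochondrial ribosomal RNA, fell at 3 h (-0.65 ± 0.22) and at 6 h (-1.64 ± 0.23). Nrf1 was called higher at 6 h (0.69), and Tfam, which packages and transcribes mitochondrial DNA, lower at 6 h (-0.37). Gabpa was lower at 3 h (-0.35).

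In 3 pairs of times compared directly, few members differed, and the other pairs of successive times were not compared. At 0.5 h against ischemia alone 0 members were called in either direction (0.0331% of all genes higher), while 19 had an unadjusted p under 0.05 by edgeR, all higher, and DESeq2 called 0. Without ischemia replicate 3, whose members stood near the reperfusion level, 16 were called. At 6 h against 3 h, 1 member, Ndufa4l2, was lower (1.18%, against 13.2% lower among all genes) and 0 were higher, and the count was 5 without 3 h replicate 1 and 2 without 3 h replicate 3. At 12 h against 6 h, Cox4i1 and Ndufv1 were lower (2.35%, against 6.68%) and Ndufa4l2 higher (1.18%, against 6.49%). Of the 85 log2 fold changes 83 were below 0, with a median of -0.23. The share above 0 was 2.35%, against 48.0% of all genes. Cox4i1 had 943, 804 and 884 CPM at 12 h, against 1222, 1223 and 1164 CPM at 6 h (-0.46 ± 0.15, adjusted p = 0.0405). Ndufv1 had 493, 473 and 419 CPM at 12 h, against 616, 637 and 577 CPM at 6 h (-0.40 ± 0.13, adjusted p = 0.0474). The count of 3 was 1 without 12 h replicate 2 or 3 or 6 h replicate 1 or 3, and 0 without 6 h replicate 2. With reads scaled to library totals alone Ndufa4l2 was the member called, and the median was -0.06, against 0.15 in all genes.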

How the data were processed

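The authors deposited, per the file headers, whole-number read counts of 46078 Ensembl genes per library, with and without multiply mapped and duplicate reads, beside RPKM values, which were not used for results. Per the submitters' processing notes, reads were placed on mm10. Libraries were made from 1 ug of RNA with an Illumina TruSeq kit, per the labels' protocols. The sources used here do not name the aligner, the counter, its use of strand or the annotation release. Duplicates made up 39.2% to 54.5% of uniquely mapped reads. Reads carry no molecular identifiers, so limits given for low counts cover counting error only.

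Deposited counts of uniquely mapped reads, duplicates kept, were fitted with edgeR 4.0.16 (R 4.3.3): TMM factors (0.858 to 1.16), filterByExpr (minimum count 10, total 15), 1 fit of 24 libraries with 8 group coefficients and 16 residual degrees of freedom, and the quasi-likelihood test with Benjamini-Hochberg adjustment within each comparison. The SE was derived from the log2 fold change and its F statistic. The 15128 genes tested held 99.9% of counts. Symbols were matched for 45143 IDs (98.0%). Positions and transcript lengths came from GENCODE vM21 on GRCm38. The fit was tested on simulated data (6 h against sham, 14791 genes). It recovered 72% of 100 genes changed by 1 on the log2 scale and 14.1% of 99 changed by 0.5, and called 0.0206% of unchanged genes. In the data 47.4% of genes were called at 6 h against sham, so these shares do not carry over.

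The members and the gene lists were chosen with earlier results of these data known. Members were named by rule: the 5 largest rises and falls per comparison among called members with at least 5 CPM, isoform families, complex II, Cyc1, Cycs, and the 2 highest per length in each complex. From other lists the largest called rise and fall and any regulator could be named. Alternatives were DESeq2 1.42.0, library totals without TMM, mitochondrial genome genes left out, no filter, duplicates removed, multiply mapped reads included, only the groups compared, a replicate block, each library left out, and, added after seeing the data, a length and GC trend (mgcv 1.9.3, values for 89.0% of tested genes) removed. No pair of libraries was identical. Values of 1 member are not reported here, though counts and medians over the members include it.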

Additional observations from a re-analysis of the deposited data

Results flagged for a closer look

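In 4 cases the effect against sham differed between 2 reperfusion times when the times were compared directly in the same edgeR fit. Ndufa4l2 differed by -1.18 ± 0.19 between 6 h and 3 h (log2, adjusted p = 8.69e-05) and by 0.83 ± 0.19 between 12 h and 6 h (adjusted p = 0.00531), and the second was lost without 6 h replicate 2. Cox4i1 differed by -0.46 ± 0.15 (adjusted p = 0.0405) and Ndufv1 by -0.40 ± 0.13 (adjusted p = 0.0474) between 12 h and 6 h, and both were lost without any of the 6 libraries compared and with reads scaled to library totals. The cause of these differences was not tested.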

How the results depend on the processing

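Totals of members called, both directions together, kept within 1.5 times their value at most settings. Such totals do not show changes of direction. With the length and GC trend removed 13 were higher and 22 lower at 6 h, against 27 and 5. There were 15 calls in both, and 24.2% of all genes were higher and 25.3% lower at that setting. At 3 h 18 were then higher and 7 lower (16.7% and 16.1% of all genes), against 28 and 0, with 14 in both. At 12 h library totals gave 15 higher and 2 lower (27.0% and 8.12% of all genes), against 4 and 11, with 6 in both. With no filter 9 were higher and 8 lower there (10.2% and 7.37% of all genes). The totals that moved further follow. After ischemia alone 7 were called with no filter, against 0. At 0.5 h 52 were called with library totals, 57 with only the groups compared and 14 with the length and GC trend removed, against 30. At 1 h 20 were called with only the groups compared and 17 with the trend removed, against 38. At 1.5 h DESeq2 called 11, and 2 were called with library totals, 16 with no filter, 2 with duplicates removed, 32 with only the groups compared and 1 with the trend removed, against 4. At 12 h 30 were called with only the groups compared and 42 with the trend removed, against 15. For 0.5 h against ischemia 9 were called with no filter, and for 6 h against 3 h 10 with the trend removed. For 12 h against 6 h DESeq2 called 8, and 1 was called with library totals, 14 with no filter, 16 with only the groups compared and 7 with the trend removed, against 3. Library totals moved the median of all genes by 0.13 at 0.5 h and 0.22 at 12 h against sham and by 0.17 for 12 h against 6 h. Leaving out 1 library gave 0 to 1 calls after ischemia, 13 to 26 at 0.5 h, 13 to 51 at 1 h, 1 to 3 at 1.5 h, 17 to 45 at 3 h, 21 to 24 at 6 h, 5 to 13 at 12 h, 0 to 16 for 0.5 h against ischemia, 1 to 5 for 6 h against 3 h, 0 to 3 for 12 h against 6 h, and 44 to 79 across the 8 groups. With the trend removed some named members turned: Cox8a to -0.087 at 0.5 h and -0.016 at 1 h, Ndufb9 to -0.030 at 1 h and -0.0012 at 3 h, Cox4i1 to -0.090, -0.010 and -0.12 at 1, 3 and 6 h, Atp5g2 to -0.013 at 6 h and Atp5d to -0.031 at 12 h. Of 91 calls of named members, 33 held at all settings. Libraries with the same replicate number did not deviate together (median correlation -0.0066, from -0.18 to 0.20), so the numbers do not pair them, and with a replicate block 30, 34, 4, 27, 30 and 14 members were called at the 6 times and 60 across the groups. The cause of these shifts was not tested. In the simulated data, where few genes were changed, changes of 0.5 on the log2 scale were often missed. The share missed in the data themselves is not known.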
